A study of Mus musculus with 20 samples.

Results

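The effect of interleukin-12 (IL-12) late in a primary CD8 T cell response was read from 2 of the 20 deposited arrays, the one labelled Ag-B7+IL12 at 72 h and the one labelled Ag-B7 at 72 h, across every gene the array's annotation names. Of 8251 named genes, 6279 were bright enough to be described. Both cultures held CD44lo CD8 T lymphocytes of C57Bl6 mice aged 6 to 8 weeks that carried the OT-1 T cell receptor transgene, which recognises an ovalbumin peptide. The cells had been enriched from lymph nodes by removing other cells. They were activated on microspheres that carried the peptide bound to H-2Kb (the antigen, signal 1) and the costimulatory ligand B7-1 (signal 2), the stimulus named Ag-B7. All stimulated cultures also received human IL-2, and the Ag-B7+IL12 culture received murine IL-12 (signal 3) in addition. Cultures with universal type I interferon (Ag-B7+IFNa/b) or with the histone deacetylase inhibitor trichostatin A (Ag-B7+TSA) in place of IL-12 were measured once each at 72 h. The same comparison was measured at 48 h on 3 Ag-B7+IL12 and 4 Ag-B7 arrays, and at 24 h on 1 array a side, beside 3 arrays of naive cells. The labels call the replicates biological without saying whether mice were pooled or which mice, cultures or days separate them, so p-values measure the spread between these arrays. At 72 h each side is 1 array, so every value at 72 h describes those arrays and carries no test, and p-values are given only for 48 h.

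IL-12 is made by dendritic cells and macrophages that have sensed a microbe. It binds a receptor of the chains IL-12RB1 and IL-12RB2 and activates, through the kinases JAK2 and TYK2, the transcription factor STAT4. In CD8 T cells it is known for raising interferon gamma and cytotoxic molecules, for sustaining the response to antigen and B7, and for the gain of effector function and memory that antigen and B7 alone do not give. Type I interferon can serve as signal 3 too. The question behind the 72 h arrays was how expression in cells that had received 3 signals differs from that in cells that had received 2.

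Values are MAS5 signals, a brightness per probe set on a linear scale on which each array has the same mean. Differences are log2(signal + 46.4) on the IL-12 array minus the Ag-B7 array, and a gene is called higher or lower at 72 h when that difference reached 2-fold. The pseudocount of 46.4 makes folds of dim genes smaller than the ratio of their signals. The 2 arrays were alike in brightness, with a median signal of 341 on the IL-12 array and 334 on the Ag-B7 array, and in the ratio of 3' to 5' actin probe sets, 1.04 and 1.11. All 12 CD8 T cell identity markers on the array were bright, none was 2-fold different, and their summed signal was 123483 with IL-12 and 148486 with Ag-B7. The summed signal of 9 B cell markers was 10786 with IL-12 and 17912 with Ag-B7, most of it from the immunoglobulin heavy chain gene Ighm. The difference of Ighm was -1.18 on the log2 scale, and its other probe sets, 7 of them of the opposite sign, ran from -1.51 to 1.40. The summed signal of 11 myeloid markers was 6286 with IL-12 and 10309.9 with Ag-B7. Of these the cathepsin gene Ctss was 2321 against 6636 and was the 1 member at least 2-fold lower, and Fcgr3 was the 1 at least 2-fold higher, at 193 against 53.7. Cd68 (1041 against 933), Cd14 (745 against 658), Csf1r (658 against 685) and C1qc (509.8 against 265) were detected on both arrays, while Lyz2 (17.6 against 8.25) and Itgam (25.8 against 29.4) were among those left out as dim. H2-Ab1, an MHC class II chain, was 2322 with IL-12 against 519.8 with Ag-B7, whereas Cd79a and Ms4a1, which mark B cells, were 176 against 212 and 172 against 382, another probe set of Ms4a1 giving 1.18 (log2). Of the 9 B cell markers 1, H2-Ab1, was at least 2-fold higher and 2, Ighm and Pax5, lower, beside 5.22% and 4.14% of all genes. Pax5 was 183 against 519 (log2 -1.30, and -0.56 at the smallest under other processing). The other class II-related genes Cd74 and H2-Eb1 were 570 against 766 and 462 against 396. The part of other cells in the differences below was not tested. RNA came from whole cultures, so fewer cells with a transcript and less RNA per cell cannot be told apart.

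Promoters of 5 genes that recur below are shown first, because each belongs to a group that differed at 72 h and carries the short motif that group is known for. They are 300 bases, 250 before and 50 after the start, from RefSeq on GRCm38.p6, and capitals mark every match of the 1 motif named for that gene on either strand. Ifng (chr10:118440796-118441095, plus strand) has a STAT motif, Irgm1 (chr11:48871371-48871670, minus strand) a pair of overlapping interferon response elements, Slc2a1 (chr4:119108495-119108794, plus strand) a hypoxia response element, Trib3 (chr2:152344011-152344310, minus strand) an ATF4 element read from the other strand, and Mt1 (chr8:94178839-94179138, plus strand) 3 metal response elements.
Ifng: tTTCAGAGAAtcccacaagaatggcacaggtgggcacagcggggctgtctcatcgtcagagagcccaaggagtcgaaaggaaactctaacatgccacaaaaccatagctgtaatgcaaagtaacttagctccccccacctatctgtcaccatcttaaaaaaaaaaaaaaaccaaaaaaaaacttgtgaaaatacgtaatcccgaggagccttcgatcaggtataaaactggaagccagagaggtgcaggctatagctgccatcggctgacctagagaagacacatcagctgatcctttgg
Irgm1: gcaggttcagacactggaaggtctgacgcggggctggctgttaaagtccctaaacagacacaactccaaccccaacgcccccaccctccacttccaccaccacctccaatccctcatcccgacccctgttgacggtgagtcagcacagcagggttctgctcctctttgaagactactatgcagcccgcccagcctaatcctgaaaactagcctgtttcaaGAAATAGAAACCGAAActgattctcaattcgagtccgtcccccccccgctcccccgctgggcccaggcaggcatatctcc
Slc2a1: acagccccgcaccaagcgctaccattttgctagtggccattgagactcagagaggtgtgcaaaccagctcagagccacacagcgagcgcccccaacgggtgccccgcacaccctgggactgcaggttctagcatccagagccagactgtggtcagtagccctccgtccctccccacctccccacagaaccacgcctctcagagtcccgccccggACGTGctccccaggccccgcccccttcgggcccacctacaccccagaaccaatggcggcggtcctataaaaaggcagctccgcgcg
Trib3: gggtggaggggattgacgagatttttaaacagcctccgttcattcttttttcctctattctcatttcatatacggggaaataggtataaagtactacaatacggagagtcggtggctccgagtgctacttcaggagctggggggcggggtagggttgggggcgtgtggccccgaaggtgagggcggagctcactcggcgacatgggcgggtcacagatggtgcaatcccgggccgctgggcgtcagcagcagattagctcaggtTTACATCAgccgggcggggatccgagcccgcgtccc
Mt1: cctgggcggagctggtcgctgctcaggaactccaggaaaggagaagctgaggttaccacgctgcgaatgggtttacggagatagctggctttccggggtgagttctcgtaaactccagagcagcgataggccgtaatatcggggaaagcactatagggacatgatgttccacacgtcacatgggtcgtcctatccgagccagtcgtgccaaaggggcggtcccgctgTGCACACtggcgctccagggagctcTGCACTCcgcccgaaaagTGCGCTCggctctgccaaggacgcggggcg

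The letters searched were TTCNNNGAA for STAT, GAAA, any 2 bases and GAAA again for the interferon element, ACGTG for the hypoxia element, TGATGNAA for the ATF4 element, and TGCGCNC or TGCACNC for the metal element. Of the 6279 genes, 5058 had a promoter in the table. These motifs were present in 7.04%, 3.10%, 26.1%, 2.12% and 35.7% of them, in that order, and in 8.42%, 3.49%, 19.6%, 4.06% and 25.6% of all 27025 promoters of the table. The genes and motifs were chosen after their values had been seen, and a match describes letters, not binding.

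At 72 h, 328 genes (5.22%) were at least 2-fold higher and 260 (4.14%) at least 2-fold lower with IL-12. For scale, 12 pairs of replicate arrays within a 48 h group differed at least 2-fold at 311 to 630 genes, so the total of 588 (9.36%) lies inside the range that replicates of 1 condition gave. At 4-fold, 64 genes (1.02%) were higher and 21 (0.334%) lower with IL-12, 85 (1.35%) in all, against 17 to 57 in the replicate pairs. At 24 h, 135 genes (2.15%) were 2-fold higher and 80 (1.27%) lower. The spread of all log2 differences was 0.63 (SD over genes) at 72 h and 0.47 to 0.61 in the pairs. Single genes near 2-fold at 72 h are therefore of the size seen between replicates, and the text below gives most room to larger differences and to genes measured with replicates at 48 h.

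**Figure D1:**
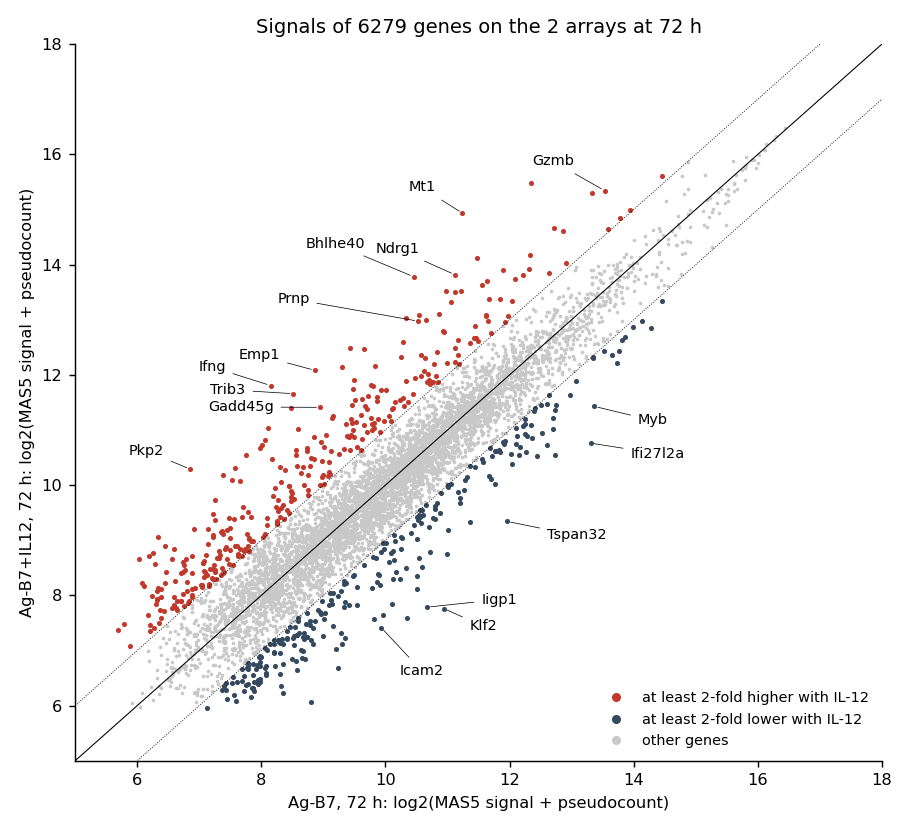
Signals of the 6279 genes on the Ag-B7+IL12 array (vertical) against the Ag-B7 array (horizontal) at 72 h, both as log2(MAS5 signal + 46.4), with 1 array a side. Red points are the 328 genes at least 2-fold higher and dark points the 260 at least 2-fold lower with IL-12; dotted lines mark 2-fold, and Mt1, Ifng and Pkp2 lie farthest above while Klf2 and Iigp1 lie farthest below.

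Ifng, the gene of interferon gamma and the cytokine most closely tied to IL-12, was 3534 with IL-12 and 237 with Ag-B7 at 72 h, a 12.6-fold difference (log2 3.66). At 48 h it was 7015, 6161 and 8274 on the IL-12 arrays and 100.2, 234, 469.7 and 1171 on the Ag-B7 arrays, a log2 difference of 4.16 ± 0.49 (SE; limma adjusted p = 0.000243), and at 24 h 13398 and 709. The groups did not overlap at 48 h, and the difference stayed more than 10-fold while the IL-12 level itself was lower at 72 h than on any earlier IL-12 array. Ifng was thus already apart at 24 h, the earliest stimulated time measured.

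At an adjusted p below 0.05 in limma, 24 genes (0.382%) had risen and 15 (0.239%) had fallen at 48 h, 0.621% in all, and most kept their difference. At an unadjusted p below 0.05 there were 364 genes (5.8%). Of the 24, 17 (70.8%) were at least 2-fold higher at 72 h, against 5.22% of all genes, and 23 kept the sign, the exception being Prl. Of the 15, 10 (66.7%) were at least 2-fold lower, against 4.14% of all genes, and 14 kept the sign, the exception being Capg. The genes that had risen and stayed higher were Crabp2, Ctla2b, Emp1, Fasl, Furin, Gadd45g, Gem, Gpr65, H2-Q10, Hopx, Ifitm3, Ifng, Mmp10, Prnp, Serpinb9, Traf4 and Usp18. Those that had fallen and stayed lower were Ctss, Dgka, Ephx1, Ifi47, Iigp1, Lgals3bp, Pdlim1 (another probe set gave 0.02 at 72 h), Rgs10, Slfn1 and Synpo. With the replicate number as a block, the counts at 48 h were 21 (0.334%) and 14 (0.223%), and 17 and 9 of those differed 2-fold the same way at 72 h. Of the genes that had risen and stayed higher, the block ended the calls of Fasl (adjusted p in limma = 0.0891), H2-Q10 (0.0511), Mmp10 (0.0507) and Traf4 (0.12). Of those that had fallen and stayed lower, it ended the calls of Ephx1 (0.0798 in limma), Lgals3bp (0.0763), Pdlim1 (0.0544) and Synpo (0.076). It added, among the genes named here, Klf2, Cdkn1a (0.0131), Ighm (0.00155) and Lilr4b (0.000532). Leaving out Ag-B7+IL12 replicate 1, 2 or 3 left 9, 15 or 13 genes that had risen and 7, 7 or 4 that had fallen. Leaving out Ag-B7 replicate 1, 2, 3 or 4 left 14, 17, 16 or 18 and 5, 8, 6 or 13. Whether the 72 h arrays share cultures with 48 h replicates is not stated in the labels.

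Gadd45g, a stress-inducible activator of the p38 pathway that feeds interferon gamma production, was 2674 with IL-12 and 446 with Ag-B7 at 72 h. Its 48 h signals were 5326, 1910.3 and 2771 with IL-12 and 548, 661, 645 and 1329 with Ag-B7 (log2 1.96 ± 0.34, adjusted p in limma = 0.012). The groups were apart at every time measured. Prnp, the prion protein gene, was 7994 with IL-12 against 1429 with Ag-B7 at 72 h, and 8379, 4267 and 3878 against 650.4, 503, 482 and 546 at 48 h. Its Ag-B7 level at 72 h exceeded all 4 Ag-B7 arrays at 48 h, so the fold was smaller late (2.45 on the log2 scale, against 3.15 at 48 h). Emp1, which encodes an epithelial membrane protein, had the reverse course, with 4289 against 418 at 72 h (log2 3.22) and 1511, 4545 and 1595 against 579, 704, 381 and 483 at 48 h (log2 1.99).

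Furin, the convertase that cuts many proproteins, was 6311 with IL-12 and 2268 with Ag-B7 at 72 h, log2 1.46, and 1.99 ± 0.19 at 48 h (adjusted p in limma = 3.12e-05). Hopx, a homeodomain-only cofactor of effector T cells, was 14703 against 6325 at 72 h and 13186, 10281 and 9442 against 2584, 1927, 2202 and 1226 at 48 h. Each arm of Hopx was brighter at 72 h than on all of its own 48 h arrays, and the Ag-B7 arm had moved more. Usp18, an interferon-induced protease that restrains type I interferon signalling, was 1238 with IL-12, 10005 with IFNa/b, 732 with TSA and 269 with Ag-B7 at 72 h. On the 4 Ag-B7 arrays at 48 h it had been only 10.1 to 34.2, so the gene came up late without any added signal 3 as well. Over the 13 bright genes put on a list for their rise with IL-12 at 48 h, 12 were 2-fold higher at 72 h and the median difference was 2.32. That list was chosen on the 48 h arrays of this series and is no independent evidence of the direction.

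**Figure D2:**
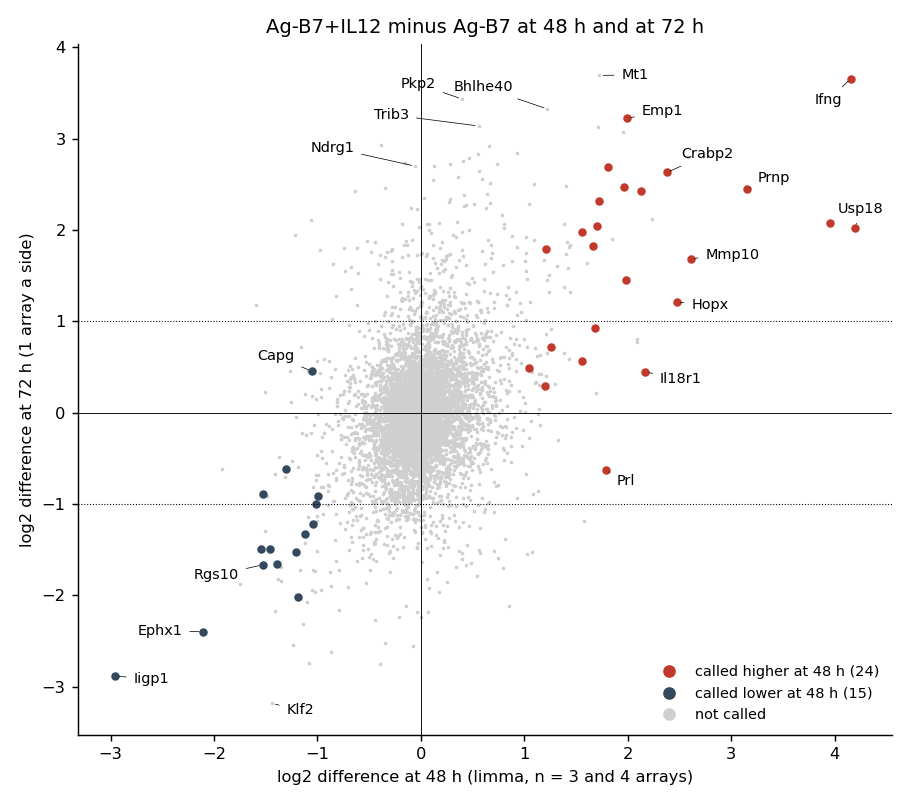
Difference between Ag-B7+IL12 and Ag-B7 at 72 h (vertical, 1 array a side) against the limma estimate at 48 h (horizontal, 3 and 4 arrays), both in log2 units, for 6279 genes. Red and dark points are the 24 genes called higher and the 15 called lower at 48 h; 17 and 10 of them lie beyond the dotted 2-fold lines, and Bhlhe40, Trib3, Pkp2 and Ndrg1 lie high at 72 h without a call at 48 h.

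The IL-12 receptor chains were higher with IL-12 at 72 h. Il12rb2, the signalling chain, was 5722 with IL-12 and 2177 with Ag-B7, a log2 difference of 1.38. Its 48 h signals were 2166, 2719.9 and 2721 against 494, 1261, 773 and 1585, a difference of 1.38 ± 0.46 that was not called (0.405 adjusted in limma), although the arrays did not overlap. Il12rb1, the chain shared with the IL-23 receptor, was 1118 against 466 at 72 h, and its 48 h arrays overlapped (768, 853 and 1305 against 431, 749, 978 and 1192). Stat4 itself was 4394 with IL-12 and 5607 with Ag-B7 at 72 h, log2 -0.35, and inside the replicate spread at 48 h. The receptor and JAK-STAT list had a median of 0.13, against -0.02 over all genes. Of its 17 bright genes 4 were higher and 0 lower, beside 5.22% and 4.14% of all genes. The other 2 were Stat5b, which carries IL-2 signals (3163 with IL-12 against 1346 with Ag-B7), and Ptpn2, a phosphatase that damps JAK signalling (2851 against 1269).

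Il18r1, a chain of the IL-18 receptor through which IL-12 and IL-18 act together on Ifng, lost its difference late. It was 2785 with IL-12 and 2032 with Ag-B7 at 72 h, only 1.36-fold apart. Earlier, at 48 h, it had been 1844, 1588 and 1635 against 610.3, 163, 544 and 223 (log2 2.17 ± 0.38, adjusted p in limma = 0.0123), and at 24 h 662 against 75.7. The IL-12 arm was brightest at 72 h, and the Ag-B7 array at 72 h was higher than all Ag-B7 arrays before it, so both arms gained and the Ag-B7 arm gained more. Cytip, Plac8 and Prl had also risen at 48 h and differed by less than 0.5 on the log2 scale in that direction at 72 h. Plac8, an abundant lysosome-associated transcript of activated lymphocytes, was 60534 against 49418 at 72 h, both beyond every 48 h array of their arm. With the replicate block the 48 h calls of Cytip (adjusted p = 0.115), Plac8 (0.0511) and Prl (0.065) were lost. Capg, an actin-capping protein, had fallen at 48 h (1606, 2137 and 2038 with IL-12 against 3972, 3769, 4204 and 4175 with Ag-B7, adjusted p in limma = 0.0111) and was 5739 against 4174 at 72 h, where its other probe sets gave -0.21 and 0.11.

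Receptors for other cytokines went both ways. Il2ra, the inducible IL-2 receptor chain, was 1196 with IL-12 and 288 with Ag-B7 at 72 h, while on the 48 h arrays, which did not overlap either, it had been 2198, 1755 and 1328 against 468, 1051, 644 and 1179.9. Both chains of the type I interferon receptor were lower. Ifnar2 was 384 with IL-12, 1143 with IFNa/b, 777 with TSA and 1981 with Ag-B7, and its 48 h arrays overlapped at 374 to 493 and 374 to 696. The Ag-B7 array at 72 h stands apart there, since the IL-12 value is within the range of the 48 h arrays of its arm. Ifnar1 was 1041 against 2429 at 72 h and 778, 773 and 679 against 1114, 934, 1005 and 1010.0 at 48 h. Il7r, the survival receptor of naive and memory cells, was 4998 with IL-12 and 3302 with Ag-B7 at 72 h, under 2-fold apart, and above every 48 h array in both arms.

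Cytotoxic molecules were partly higher: 6 of 18 bright members of that list were at least 2-fold higher and 1, Lamp2, lower (another probe set of Lamp2 gave 0.07), with a median of 0.36, where 5.22% and 4.14% of all genes were. Gzmb, the granzyme that cleaves caspases in the target cell, was 41438 with IL-12, 37108 with IFNa/b, 50455 with TSA and 11775 with Ag-B7. All 3 additions were therefore more than 3-fold above the single Ag-B7 array, whose value was below all 4 Ag-B7 arrays at 48 h (20017 to 30967). Prf1, the pore-forming perforin, was 1882 against 481 at 72 h (log2 1.87), and 1157, 2159 and 1285 against 249.6, 856, 720.2 and 473 at 48 h, where the groups did not overlap and the difference was not called (log2 1.41 ± 0.37, adjusted p in limma = 0.138). For Prf1 the IFNa/b and TSA arrays were close to Ag-B7, at 539 and 586. Serpinb9, which protects the killer cell from its own granzyme B, was 11744 against 2323 at 72 h and had risen at 48 h (log2 1.73 ± 0.35, adjusted p in limma = 0.0294). Fasl, the death ligand, was 1722 against 453 at 72 h, and at 48 h it had risen by 1.67 ± 0.33 (adjusted p in limma = 0.0245, and 0.0891 with the replicate block). Gzmc and Gzmd, close relatives whose probe sets may share signal, were 4.36-fold and 6.62-fold higher at 72 h.

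Of 20 bright cytokine and chemokine genes, 4 were higher and 1, Tnfsf11, lower, beside 5.22% and 4.14% of all genes. Besides Ifng these were Tnf (291 with IL-12 against 71.1 with Ag-B7), Ccl3 (1836 against 671) and Ccl4 (1262 against 396), the last pair being chemokines. All 3 overlapped widely between arms at 48 h, with Ccl3 at 1562, 2825 and 7648 against 606, 3021, 6892 and 17617, so their late difference has the size that replicates show. On the TSA array Tnf was 1682, far above the other 72 h arrays.

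Of 38 bright lymphocyte fate transcription factors, a list that mixes factors of effector, naive and memory cells, 9 were higher and 6 lower, with a median of 0.40 (5.22% and 4.14% of all genes, with a median of -0.02). Prdm1, which encodes BLIMP-1, a driver of terminal effector cells, was 803 with IL-12 and 106 with Ag-B7 at 72 h. At 48 h it was 328, 512 and 389.7 against 64.4, 108, 206 and 150.0, apart on every array but not called (log2 1.40 ± 0.36, adjusted p in limma = 0.119). Id2, an inhibitor of E proteins that favours effector cells, was 8007 against 3174, and its relative Id3, linked to memory precursors, was 1448 against 4489. The Id3 arrays overlapped at 48 h (1805 to 3347 and 2068 to 4628). Bhlhe40, a repressor that supports cytokine production, was 14006 against 1356 (log2 3.32), and on all 3 IL-12 arrays at 48 h it was above all 4 Ag-B7 arrays, which themselves ran from 1475 to 6321. Xbp1, Nfil3, Batf3, Fosl2, Hopx and Junb were higher by 1.41, 1.34, 1.33, 1.32, 1.21 and 1.13 on the log2 scale. Eomes, which partners T-bet in effector and memory cells, was 184 with IL-12, 677 with IFNa/b, 2781 with TSA and 153 with Ag-B7, so its level with IL-12 was near that with Ag-B7 alone.

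Klf2, the factor that keeps T cells quiescent and recirculating, had the lowest difference of all 6279 genes. It was 170.3 with IL-12, 589.6 with IFNa/b, 60 with TSA and 1922 with Ag-B7 at 72 h, against 12461, 5071 and 6006 in naive cells. Activation had brought it to 57.3 with IL-12 and 50.9 with Ag-B7 by 24 h, and on the 48 h arrays it was 130.3, 96.5 and 113 against 724, 514, 526 and 94.5. All but 1 of the 4 Ag-B7 arrays at 48 h were above all IL-12 arrays, and Klf2 at 72 h was far above them in the Ag-B7 culture and slightly above its 48 h level in the IL-12 culture. The 48 h difference of -1.44 ± 0.45 was not called in limma (adjusted p = 0.323) and was called with the replicate block (0.0052). Myb, a factor of self-renewal in memory precursors, was 2707 against 10509 at 72 h and 2121, 2624 and 2558 against 6435, 4534, 5581 and 3161 at 48 h, with no overlap. Its course is like that of Klf2 in that the Ag-B7 array at 72 h is above every Ag-B7 array at 48 h while the IL-12 array is near its own 48 h level. Gata3 was 314 against 1244 and Irf1 2096 against 4717.

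The list of naive and quiescence genes had 7 of 24 members lower and 0 higher, beside 4.14% and 5.22% of all genes. Besides Klf2 these were Txnip, Slfn2, Ikbke, Dgka, Pdcd4 and Rasgrp2. Txnip, which restrains glucose uptake, was 1456 with IL-12, 1387 with IFNa/b, 3138 with TSA and 6784 with Ag-B7, although a dimmer probe set of it differed by 0.58 the other way. Dgka, a kinase that removes diacylglycerol and so dampens receptor signalling, was 5496 against 13864 and had fallen at 48 h (log2 -1.12 ± 0.21, adjusted p in limma = 0.0207). As a whole the list averaged 10.83 with IL-12 and 11.41 with Ag-B7 at 72 h (mean log2 level), above the 48 h arrays of either arm, which ran from 9.79 to 10.00 with IL-12 and from 9.82 to 10.33 with Ag-B7. Both cultures were thus above their 48 h level, the Ag-B7 culture by more. IFNa/b (10.76) and TSA (10.16) were also below the Ag-B7 array, the control they share. Among homing receptors, beside the same shares of all genes, 4 of 18 were lower and 0 higher. The lower ones were Icam2, Cxcr3, Itga6 and Itgae. Icam2, a ligand of LFA-1, was 124 against 931 at 72 h and 618 to 733 against 682 to 1022 at 48 h, and here it was the IL-12 array that had left its earlier range. Cxcr3, a receptor for interferon-induced chemokines, was 394 against 1644.

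**Figure D3:**
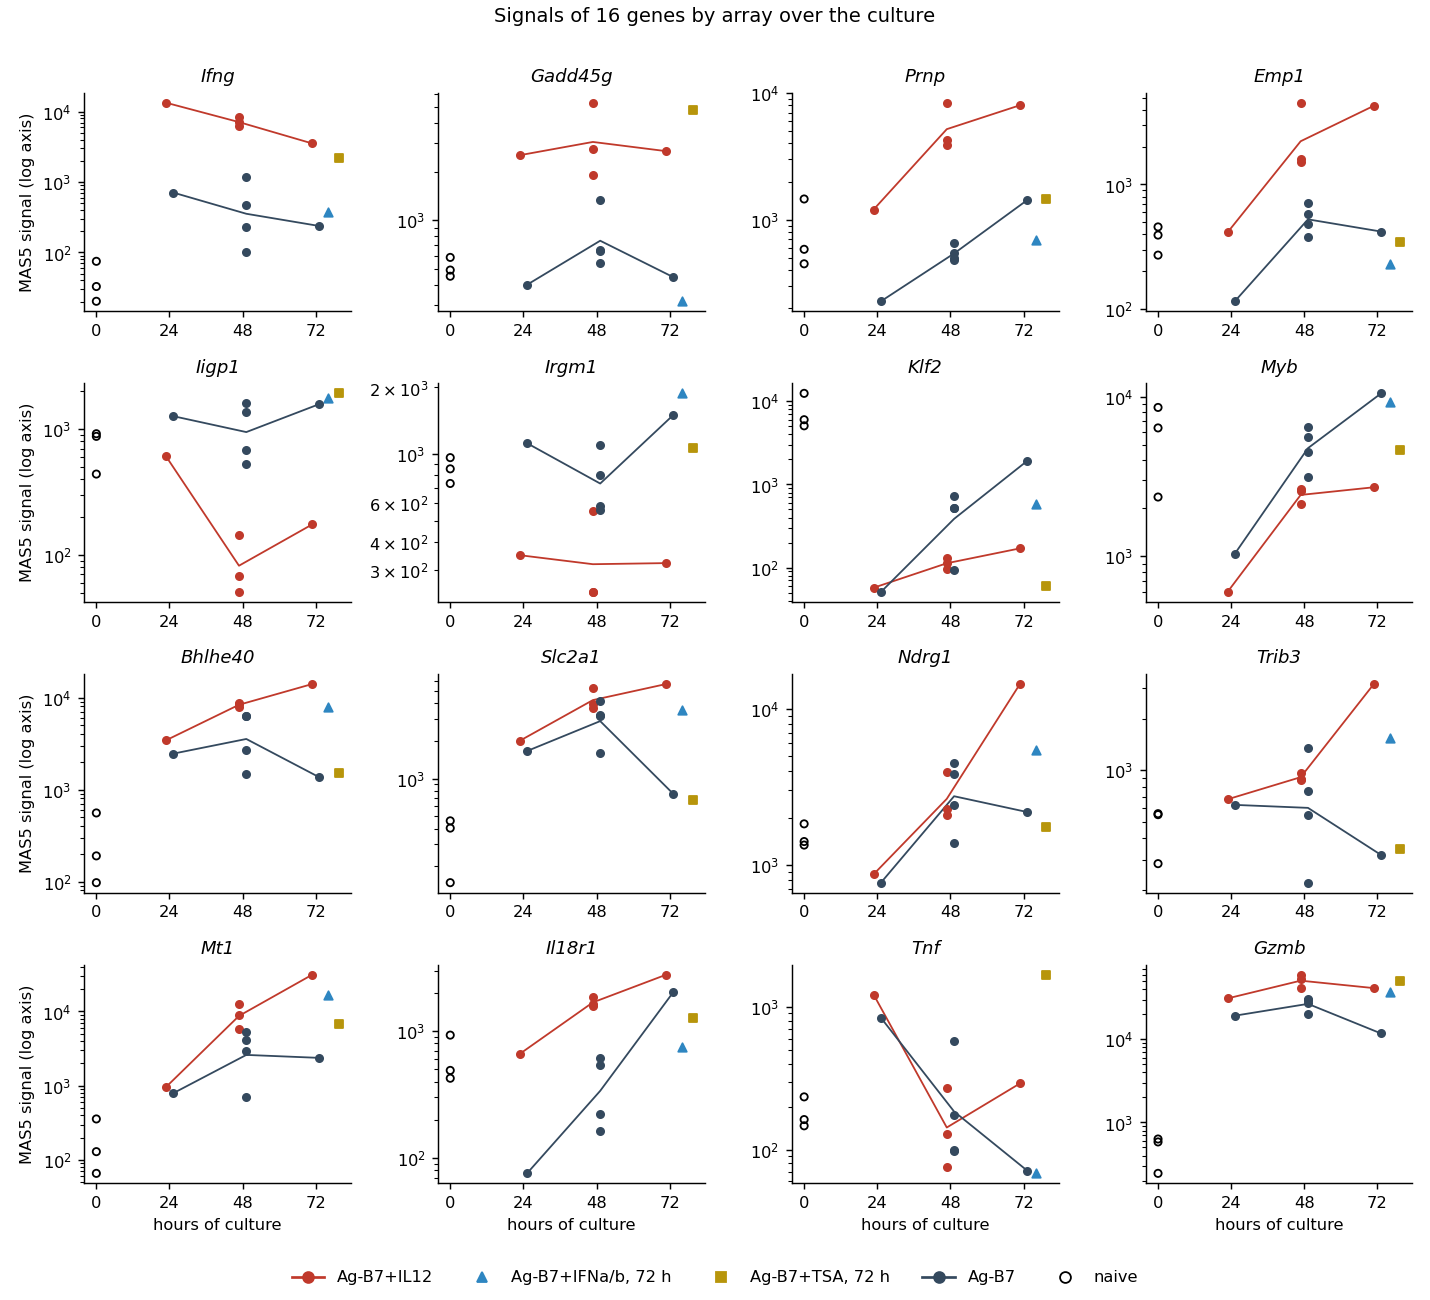
MAS5 signals (log axis) of 16 genes by hours of culture, each point 1 array: Ag-B7+IL12 in red, Ag-B7 in dark blue, naive cells as open circles, and the single IFNa/b and TSA arrays of 72 h as triangles and squares drawn to the right of 72 h. Lines join the means of log2(signal + 46.4) of an arm. Ifng and Gadd45g are apart from 24 h on, and Il18r1 converges at 72 h. Slc2a1, Ndrg1 and Trib3 open mainly between 48 and 72 h, while Klf2 goes from a log2 difference of -1.44 at 48 h to -3.18 at 72 h.

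Most genes past 2-fold at 72 h had no clear difference at 48 h. Of the 328 higher genes, 226 had a mean difference below 0.5 on the log2 scale in that direction at 48 h, and of the 260 lower genes 184 did so. Of these, 111 and 76 were above the median signal of the genes described on at least 1 of the 2 arrays. The total of 588 lies inside the range of replicate pairs, so late onset and spread between arrays cannot be told apart for these genes. Still, 235 of the 328 (71.6%) had a positive mean at 48 h, against 48.5% of all genes, and 187 of the 260 (71.9%) a negative one, against 51.5%. From 48 to 72 h, the 328 higher genes moved by a median of 0.66 in the IL-12 arm and -0.58 in the Ag-B7 arm, where all genes moved by 0.16 and 0.17. For the 260 lower genes the medians were -0.17 in the IL-12 arm and 0.92 in the Ag-B7 arm. The IL-12 array at 72 h lay above its 48 h range for 210 of the higher genes, and the Ag-B7 array below its own for 148. Of the lower genes, 182 had the Ag-B7 array above its 48 h range and 92 the IL-12 array below its own. These ranges rest on 3 IL-12 and 4 Ag-B7 arrays, and the share of all genes outside them was not counted. Genes chosen for a difference at 72 h also tend to have either array at an extreme. The larger move from 48 to 72 h was in the Ag-B7 arm for 177 of the lower genes and 159 of the higher ones. Among all 6279 genes it was in that arm for 3216. By count, the larger move was thus mostly in the Ag-B7 arm for the lower genes and about evenly split for the higher ones. These moves were not corrected for the rise of all genes in both arms. The part of each arm in the late difference was not tested. How far another Ag-B7 culture at 72 h would repeat these values was not tested.

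Hypoxia and HIF target genes were put on a list after the largest rises at 72 h had been seen, so their count and median at 72 h are a description of genes chosen partly for those values. HIF-1 is stabilised when oxygen is low and also when antigen and cytokines drive growth through mTOR, and it turns on glucose uptake, glycolysis and angiogenic factors. Of 37 bright members 25 were at least 2-fold higher and 0 lower, beside 5.22% and 4.14% of all genes. The median was 1.74 at 72 h, 0.18 at 48 h and 0.07 at 24 h. The mean log2 level over the list was 12.48 with IL-12 and 10.91 with Ag-B7 at 72 h. At 48 h it was 11.47 to 11.95 with IL-12 and 10.98 to 11.80 with Ag-B7, so the IL-12 array had gone above and the Ag-B7 array slightly below all 48 h arrays. The gap of 1.57 at 72 h compares with a range of 0.82 between the 4 Ag-B7 replicates at 48 h, and with 0.49, 0.15 and 0.15 between same-numbered arrays of the arms at 48 h.

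Slc2a1, the glucose transporter GLUT1 whose promoter is printed above, was 5652 with IL-12, 3528 with IFNa/b, 673 with TSA and 755 with Ag-B7 at 72 h. Its 48 h signals had been 3637, 5227 and 3933 with IL-12 and 1611, 3183, 3175 and 4129.8 with Ag-B7, overlapping. The Ag-B7 array at 72 h was below, and the IL-12 array slightly above, its earlier range. Hk2, the hexokinase that traps glucose, was 4474 against 585 at 72 h and had already been apart at 48 h, at 5612 to 6736 with IL-12 against 1689 to 4850.2 with Ag-B7 (not called, 0.323 adjusted in limma); both arms were below their 48 h range at 72 h, the Ag-B7 arm by more. Ndrg1, a stress gene and classic hypoxia target, differed in that the IL-12 array climbed: it was 14381 against 2175 at 72 h, and 2274, 3915 and 2068 against 1369, 4505, 2399 and 3817 at 48 h. Vegfa, the angiogenic factor, was 1217 against 144 at 72 h, with 48 h arrays of 298 to 394 and 133 to 649.8. Ero1a, an oxidase of disulphide formation, was 17780.0 against 2795, and Ak4, a mitochondrial adenylate kinase, 1658 against 210.3. No one of the 37 was called at 48 h in limma, the smallest adjusted p being 0.323 (Hk2).

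Glycolysis genes, many of them also on the hypoxia list, had 10 of 19 members higher and 0 lower, beside 5.22% and 4.14% of all genes. Their median was 1.15 at 72 h and 0.12 at 48 h. Aldoc, an aldolase, was 8159.9 with IL-12, 2472 with IFNa/b, 80.6 with TSA and 1567 with Ag-B7. Pfkl, a subunit of the rate-setting phosphofructokinase, was 8584 with IL-12 and 8534 with IFNa/b, against 3083 with Ag-B7, whose 48 h arrays had been 7956 to 11581. The very bright Ldha and Pgk1 were 1.78-fold and 1.56-fold higher, under the 2-fold mark. The motif ACGTG was found in 18 of the 33 hypoxia list genes with a promoter in the table and in 10 of 18 glycolysis genes, against 26.1% of the genes described here. The metal motif was found in 17 of the same 33 and 10 of the same 18 promoters, against 35.7%, so the excess was not particular to ACGTG. Among the 252 higher genes with a promoter the share of ACGTG was 23.8%. The STAT, interferon, ATF4 and metal motifs were in 6.75%, 3.17%, 5.95% and 35.3% of these 252, against 7.04%, 3.10%, 2.12% and 35.7% of the genes described.

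Genes of amino acid supply and the ATF4 programme formed a related group. ATF4 is translated when amino acids run short or the endoplasmic reticulum is stressed, and it raises transporters, synthetases and the enzymes that make non-essential amino acids. Of 20 bright members 12 were higher and 0 lower, beside 5.22% and 4.14% of all genes. The median was 1.16 at 72 h and 0.31 at 48 h. Trib3, a pseudokinase induced by ATF4, was 3184 with IL-12 and 320.3 with Ag-B7 at 72 h, and 969, 891 and 875 against 221, 756, 551 and 1345 at 48 h. Asns, asparagine synthetase, was 11574 with IL-12 and 11811 with IFNa/b, against 2183 with Ag-B7. Slc7a5, which imports leucine, was 10234 against 2076, Atf4 itself 15239.9 against 3763, and Ddit3, the stress factor CHOP, 3363 against 665. In each of Asns, Slc7a5 and Atf4 the Ag-B7 array at 72 h was below all 4 Ag-B7 arrays at 48 h, while the IL-12 array was within its own 48 h range for Asns and just above it for Slc7a5 and Atf4. The mean level of the list was 11.68 with IL-12 and 10.42 with Ag-B7 at 72 h, and 11.29 to 11.63 with IL-12 and 10.70 to 11.77 with Ag-B7 at 48 h. The spread between Ag-B7 replicates at 48 h, 1.07, is nearly as wide as the difference at 72 h, 1.26. TGATGNAA was found in 5 of 17 of these promoters, against 2.12% of the genes described.

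Metallothioneins, which bind zinc and copper, included the highest difference of all genes. Mt1 was 31217 with IL-12, 16912 with IFNa/b, 6854 with TSA and 2370.2 with Ag-B7 at 72 h, and 12677, 9036 and 5764 against 4129, 5306, 2898 and 699 at 48 h. All 3 IL-12 arrays were above all 4 Ag-B7 arrays at 48 h, and the difference of 1.73 ± 0.58 was not called (0.405 adjusted in limma) and the Ag-B7 replicates ranged widely. Mt2, whose probe set may share signal with Mt1, was 45451 against 5177. The metal motif stands 3 times in the Mt1 promoter and 4 times in that of Mt2, in a background of 35.7%. The heat shock genes Hspa1a and Hspa1b, near-identical copies, were 2659 against 308 and 2055 against 230.3. Of the 24 metallothionein and stress genes 7 were higher and 0 lower, beside 5.22% and 4.14% of all genes, with a median of 0.32.

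Among other genes with large late differences, Scd1, the desaturase that makes oleate, was 5709 with IL-12 and 639.6 with Ag-B7 (log2 3.07). Its 2 other probe sets gave -0.01 and 3.79. Of 18 cholesterol and fatty acid genes 4 were higher and 0 lower, beside 5.22% and 4.14% of all genes. Pkp2, a desmosomal plakophilin, was 1205 against 69.3 (log2 3.44), and its 2 dimmer probe sets gave -0.03 and 2.49. Of 21 costimulatory and inhibitory receptors 4 were higher and 1 lower, beside the same shares of all genes, with a median of 0.20. Tnfrsf9, the costimulatory receptor 4-1BB, was 8286 with IL-12 and 4871 with IFNa/b, against 1238 with Ag-B7. Tnfrsf4, or OX40, was 11717 and 9282, against 1957. At 48 h both receptors overlapped between the arms, with Tnfrsf4 at 1233, 11994, 4951 and 7129 on the Ag-B7 arrays alone, a range wider than the difference at 72 h. Tnfaip3, the NF-kappaB inhibitor A20, was 3075 against 796 at 72 h, above all 48 h arrays, which were 279 to 323 with IL-12 and 214 to 474 with Ag-B7.

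**Figure D4:**
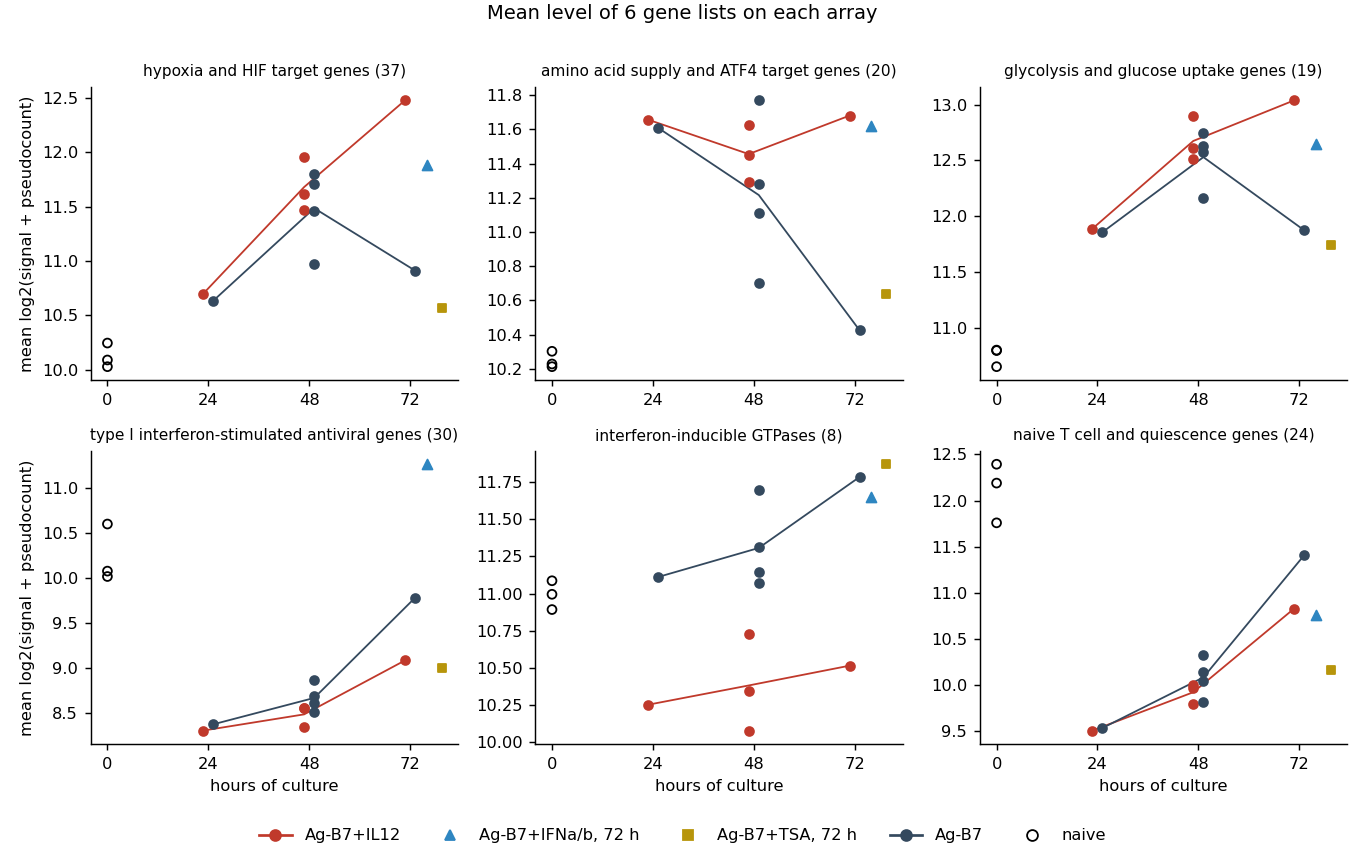
Mean log2(signal + 46.4) over the members of 6 gene lists on each array by hours of culture, with the number of genes in the title: Ag-B7+IL12 in red, Ag-B7 in dark blue, naive cells open, IFNa/b and TSA at 72 h as triangle and square drawn right of 72 h. Lines join the means of an arm; at 72 h the hypoxia list is at 12.48 with IL-12 and 10.91 with Ag-B7, while the interferon-inducible GTPases are at 10.51 and 11.79 and were already apart at 24 and 48 h.

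Interferon-inducible GTPases, which attack the vacuoles of intracellular microbes and are classic targets of interferon gamma, were lower with IL-12 although Ifng was higher. Of 8 bright members 5 were lower and 0 higher at 72 h, beside 4.14% and 5.22% of all genes. The median was -1.48, after -0.69 at 48 h and -0.68 at 24 h. Iigp1 was 174 with IL-12, 1775 with IFNa/b, 1925 with TSA and 1583 with Ag-B7. At 48 h it was 144, 67.7 and 50.6 with IL-12 against 529, 1362, 678 and 1614 with Ag-B7 (log2 -2.95 ± 0.38, adjusted p in limma = 0.000501), with no overlap. Irgm1, whose promoter with a pair of interferon elements is printed above, was 321 against 1502 at 72 h and 550.1, 238 and 238 against 1104, 561, 584 and 802 at 48 h, not called (adjusted p in limma = 0.138). Ifi47 was 1285 against 4165 at 72 h and had fallen at 48 h (log2 -1.39 ± 0.25, adjusted p in limma = 0.0123). Irgm2 and Igtp were 3.36-fold and 2.47-fold lower at 72 h, whereas Gbp2 and Gbp3 differed by -0.29 and 0.30 on the log2 scale. Among the promoters of the GTPases, 6 of 7 held the interferon element, against 3.10% of the genes described.

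Antiviral genes of the type I interferon response were also more often lower than higher with IL-12. Of 30 bright members 12 were lower and 2 higher, beside 4.14% and 5.22% of all genes. The median was -0.82 at 72 h and -0.22 at 48 h. On the IFNa/b array 15 of the 30 were higher and 0 lower than on the same Ag-B7 array, with a median of 1.11. Of all genes 3.93% and 3.57% were. The mean level of the list was 9.09 with IL-12, 11.26 with IFNa/b and 9.78 with Ag-B7 at 72 h, and 8.35 to 8.56 with IL-12 and 8.51 to 8.87 with Ag-B7 at 48 h. The antiviral genes thus stood above their 48 h level in both cultures, by less with IL-12. Irf7, the factor that amplifies interferon production, was 285 with IL-12, 3463 with IFNa/b and 910.5 with Ag-B7. Ifi27l2a was 1689 with IL-12, 21836 with IFNa/b and 10069 with Ag-B7, and its 48 h arrays were 396 to 726 and 555 to 3462. Cmpk2, a mitochondrial nucleotide kinase, was 20.5 against 401, while a second probe set differed by 0.06 (log2). Lgals3bp, a secreted galectin-binding protein, was 601 against 2585 and had fallen at 48 h (adjusted p in limma = 0.0229, and 0.0763 with the replicate block). The exceptions were Usp18, given above, and Ifitm3, a membrane protein that blocks virus entry, at 1584 with IL-12 and 2372 with IFNa/b, against 207 with Ag-B7.

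Outside the interferon families, Ephx1, an epoxide hydrolase, was 229.6 with IL-12 against 1407 with Ag-B7 at 72 h and 317, 470.3 and 151 against 1449, 1665, 1098 and 1422 at 48 h (adjusted p in limma = 0.0294, and 0.0798 with the replicate block). Rgs10, which shortens G protein signals, was 1501 against 4865 and had fallen by 48 h (965, 888 and 1064 against 3048, 3178, 2593 and 2777, adjusted p in limma = 0.000243). Its 2 other probe sets gave differences of -1.69 and 1.31 at 72 h. Tspan32, a tetraspanin of lymphocytes, was 602 against 3935 at 72 h and 682, 1337 and 1237 against 2405, 1887, 2065 and 1499 at 48 h, apart on every array but not called. Nsg2, a vesicle protein known from neurons, was 147 against 1257. Of the 13 genes listed for their fall with IL-12 at 48 h, a list chosen on these 48 h arrays, 9 were lower at 72 h.

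**Figure D5:**
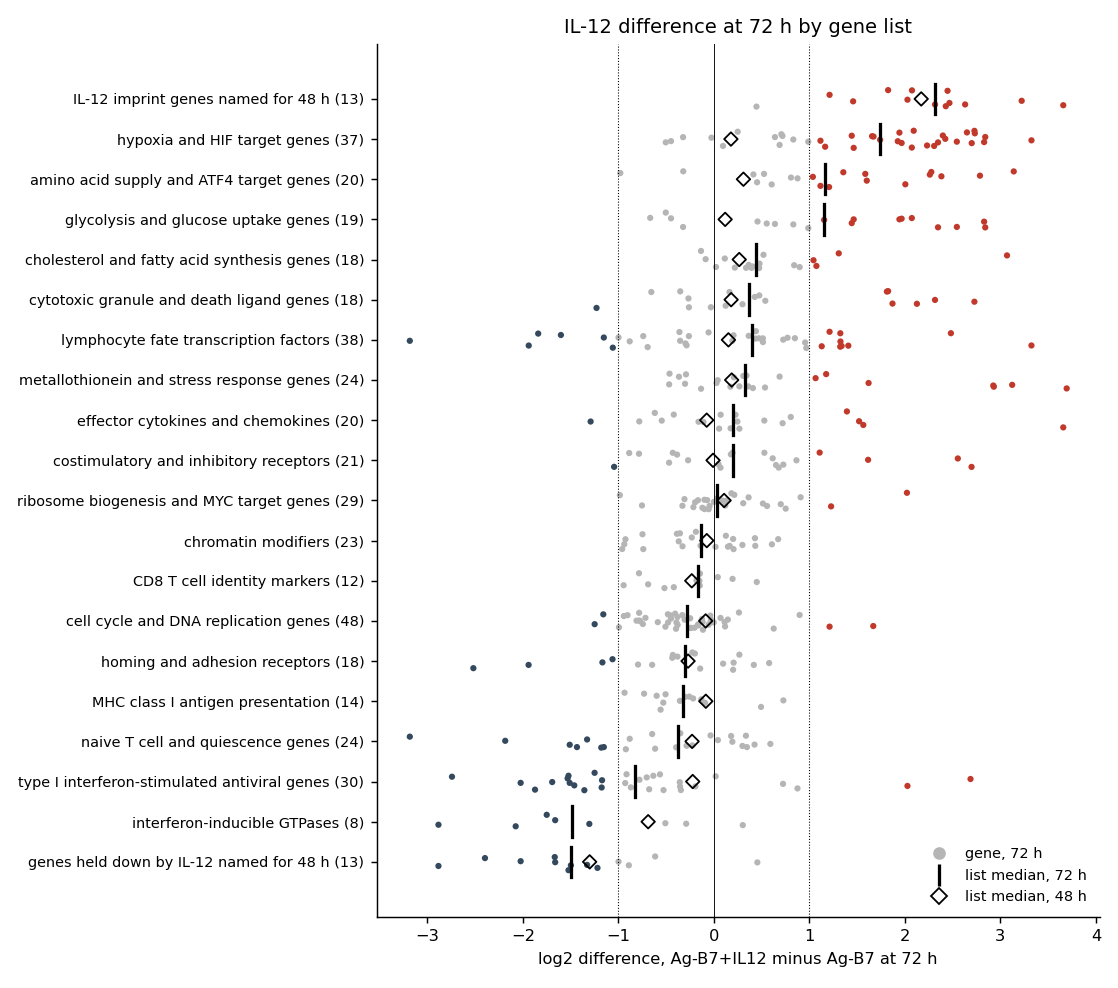
Log2 difference, Ag-B7+IL12 minus Ag-B7 at 72 h, of the members of 20 gene lists (1 point a gene, number of genes in brackets), with the list median at 72 h as a bar and at 48 h as a diamond. Red and dark points are beyond the dotted 2-fold lines. The hypoxia, amino acid and glycolysis medians lie right of 1 at 72 h, and at 0.18, 0.31 and 0.12 at 48 h. Chromatin modifiers and MHC class I genes have no point beyond 2-fold, where 9.36% of all genes are.

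Several groups had no genes past 2-fold, or shares near those of all genes. None of 23 chromatin modifiers and none of 14 MHC class I presentation genes reached 2-fold, with medians of -0.14 and -0.33. Of all genes 5.22% were higher and 4.14% lower, so lists this short would hold few such genes at the same shares. A negative difference was seen in 12 of the 23 and in 12 of the 14, so the MHC class I genes leaned lower by small amounts. Of 48 cell cycle genes 2 were higher and 2 lower, beside 5.22% and 4.14% of all genes, and 39 had a negative difference, as had 3261 of all 6279 genes; the median was -0.28. Those past 2-fold were the inhibitor Cdkn1a (2432 with IL-12 against 733 with Ag-B7) and the cyclin Ccnd3 (6063 against 2592) on the higher side, and the cyclin Ccnd2 (1497 against 3621) and the ribonucleotide reductase subunit Rrm2 (1519.9 against 3448) on the lower. Ribosome biogenesis and MYC target genes had 2 of 29 higher and 0 lower, beside the same shares of all genes, and a median of 0.03. Between 48 and 72 h they were lower in both arms, by medians of -0.85 with IL-12 and -1.06 with Ag-B7.

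The IFNa/b and TSA arrays were set against the same Ag-B7 array, so a gene that happened to be low or high on that array is higher or lower in all 3 comparisons. With IFNa/b 247 genes (3.93%) were at least 2-fold higher and 224 (3.57%) lower, and with TSA 445 (7.09%) and 563 (8.97%). The higher sets of IL-12 and IFNa/b had 128 genes in common, 39.0% of the IL-12 set and 51.8% of the IFNa/b set. The lower sets had 65, 25.0% and 29.0%. IL-12 and TSA had 94 higher genes in common, 28.7% of the IL-12 set and 21.1% of the TSA set, and 98 lower genes, 37.7% and 17.4%.

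By group, the metabolic lists had higher medians with IL-12 and with IFNa/b than with TSA. The hypoxia list had a median of 1.74 with IL-12, 0.99 with IFNa/b and -0.21 with TSA, and the amino acid list 1.16, 1.09 and 0.40. Slc2a1 differed from Ag-B7 by 2.83, 2.16 and -0.16 on the log2 scale, Bhlhe40 by 3.32, 2.51 and 0.15, and Tnfrsf9 by 2.70, 1.94 and 0.24, in the order IL-12, IFNa/b, TSA. These differences share the Ag-B7 array. Some genes were apart with IL-12 and not with IFNa/b: Ifng was 372 with IFNa/b, close to Ag-B7, and Gadd45g 317. At 2-fold, 4 genes were higher with IL-12 and lower with IFNa/b, Lilr4b, Pltp, Prnp and Trp53inp2. Another 8 were lower with IL-12 and higher with IFNa/b, Cdk5r2, Cmpk2, Ifi209, Ifi27l2a, Ifit1, Irf7, Mov10 and Rsad2. They made up 1.22% of the IL-12 higher set and 3.08% of the lower set. Of all genes, 3.57% were lower and 3.93% higher with IFNa/b. With TSA 24 of the higher genes (7.32%) went the other way, Aldoc, Ddit3, Ctla2b and Klrc1 among them. Of the lower ones 4 (1.54%) did so, Asf1b, Pik3r2, Rag1 and Scmh1. Of all genes, 8.97% were lower and 7.09% higher with TSA. None of these opposite counts, with IFNa/b or TSA, exceeded the share of all genes.

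All 3 additions gave at least 2-fold higher values for 37 genes and lower values for 31. Among the 37 were Gzmb, Hk2, Mt1, the amino acid transporters Slc1a4, Slc7a3 and Slc7a5, and Bcat1, an aminotransferase of branched-chain amino acids. Slc1a4 was 1446 with IL-12, 1221 with IFNa/b and 664 with TSA, against 170.0 with Ag-B7. Among the 31 were Klf2, Dgka, Pdcd4, Txnip and Mxd4, an antagonist of MYC. Mxd4 was 1798, 1561 and 795 with the additions in the same order, against 5193 with Ag-B7, where the 4 Ag-B7 arrays at 48 h had been 177 to 775. For 31 of the 31 lower genes the Ag-B7 array at 72 h lay above the range of the 4 Ag-B7 arrays at 48 h. For 26 of the 37 higher ones it lay below that range. The same held for 182 of all 260 genes lower and 148 of all 328 higher with IL-12. Genes chosen for their distance from that array tend to have it at an extreme, and the share over all genes was not counted. Differences with IL-12 and with neither other addition numbered 143 higher and 128 lower genes. For 44 and 74 of these the Ag-B7 array was outside its 48 h range in the same way.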

How the data were processed

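RNA of CD8 T cells was hybridised as 1 biotin-labelled sample per Affymetrix array. The deposited values are intensity values, MAS5 signals for 12488 probe sets per array, as named in the submitters' processing notes (the sources used here do not give its version or target brightness). Their trimmed mean was 1000.46 to 1000.74 on all 20 arrays, so differences are relative to total labelled RNA. Gene names came from the platform annotation: 10833 probe sets had 1 symbol, 396 several, 1193 none, and 66 were controls. For 2073 genes with several probe sets the brightest stood for the gene, and probe sets of the opposite sign at 72 h are given beside the genes named. Probe sets of close relatives (granzymes, Mt, Hspa1, Ctla2, Slfn, Ifi, H2, immunoglobulin genes) may not tell them apart.

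Values were transformed as log2(signal + 46.4), the pseudocount being the median over arrays of the 20th percentile. Genes had to exceed the array's 40th percentile on 3 or more of the 13 arrays of replicated groups. Of the 1972 left out, 207 differed 2-fold at 72 h. The 4 replicated groups were fitted in limma 3.58.1 (R 4.3.3) with a variance trend, 9 residual degrees of freedom, and two-sided tests adjusted by Benjamini-Hochberg over 6279 genes. The code was tested on simulated data. Same-numbered IL-12 and Ag-B7 arrays at 48 h deviated together (r across genes 0.280, 0.279 and 0.276), so the fit with the replicate number as a block is given where it changes a call. The labels name no batch or hybridisation date, and the number of arrays limits precision.

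The comparison, 31 gene lists (523 of 739 listed genes kept) and the hypoxia list were chosen with earlier results of these data known. Genes were named by rule. The 10 largest differences in each direction were taken among bright genes that kept their sign under quantile normalization, median centring and a 4 times larger pseudocount. To these were added up to 4 members per list and the largest of those that held, appeared late or were lost after 48 h. Those largest in all 3 comparisons at 72 h and preset genes of IL-12 biology completed the set. Other members given as examples were chosen after their values were seen. Alternatives were quantile normalization, median centring, spike-in scaling, pseudocounts, no filter, other probe set choice, other thresholds, no variance trend, the block, and leaving out each replicate.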

Additional observations from a re-analysis of the deposited data

Results flagged for a closer look

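Among the 114 named genes, 6 (5.26%) had 1 of the 4 Ag-B7 arrays at 48 h far from the other 3. The cut used is one that 1 in 20 groups of independent values would pass. The named genes share the same 4 arrays and were mostly chosen by their values, so whether that rate holds here was not tested. Replicate 2 was lowest for Crabp2 (36.4, against 192 to 243), and highest for Il7r (675, against 310 to 346) and Rrm2 (6697, against 5069 to 5294). Replicate 3 was highest for Bgn (812, against 345 to 389) and Eif5a (297, against 89.7 to 112). Replicate 4 was lowest for Mt2 (1076, against 2886 to 3527). These arrays form the 48 h background of the comparison at 72 h, and the cause was not tested.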

How the results depend on the processing

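With the replicate number as a block, which pairs same-numbered arrays, the counts at 48 h were 21 and 14, and 17 and 9 of those were held at 72 h; the calls of the genes named that changed are given in the report. Without the naive arrays in that block (tried only once the data had been seen), the counts were 46 and 35, and 31 and 21 were held. Leaving out 1 replicate at 48 h gave 9 to 18 higher and 4 to 13 lower calls, of which 7 to 15 and 2 to 10 were held; the fewest higher calls came without Ag-B7+IL12 replicate 1 and the fewest lower without Ag-B7+IL12 replicate 3. Lower calls at 48 h numbered 6 (4 held) with median centring, 2 (2 held) with spike-in scaling and 7 (5 held) without the variance trend. A pseudocount 4 times larger gave 208 higher and 131 lower genes at 72 h, and common sets of 78 higher and 29 lower with IFNa/b, 36 and 60 with TSA, and 15 and 17 in all 3; one 4 times smaller gave 59 higher in all 3. Without the filter, 101 lower genes were common with IFNa/b and 52 to all 3. Spike-in scaling gave 210 higher and 27 lower in common with IFNa/b, and 73 and 10 in all 3. At 3-fold 141 genes were higher and 59 lower at 72 h, and at 4-fold, a threshold added after seeing the data, 64 and 21. The cause of these changes was not tested, apart from those that test more or fewer genes or arrays by construction. No result reversed. Of 98 named genes past 2-fold at 72 h, 98 kept their sign under all 6 alternatives of scaling, pseudocount and probe set, and 84 stayed past 2-fold in each. These counts are partly fixed by selection, since most genes were named for large differences at 72 h. For the 10 largest in each direction, the naming rule itself required the sign to hold under quantile normalization, median centring and the larger pseudocount. With 1 array a side at 72 h, differences of the size of the replicate spread cannot be told from it, and dim genes have only compressed folds.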

Other observations

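Several further genes were at least 2-fold higher on the IL-12 array than on the Ag-B7 array at 72 h. Lilr4b, an inhibitory receptor with close relatives, was 1121 with IL-12 and 121 with Ag-B7, and at 48 h 1359.9, 910.1 and 2341 against 85.3, 55.8, 262 and 846 (log2 2.58 ± 0.61, adjusted p in limma = 0.0753, and 0.000532 with the replicate block). Gem, a small GTPase that limits calcium channels, was 2024 against 338 at 72 h and had risen at 48 h (log2 2.13 ± 0.32, adjusted p in limma = 0.00332). Gpr65, a proton-sensing receptor, was 3552 with IL-12 and 2955 with IFNa/b, against 826 with Ag-B7, and had risen at 48 h with IL-12 (adjusted p in limma = 0.00859). Rgs2, a regulator of G protein signals, was 1754 against 221 and 401 to 759 against 199.9 to 537 at 48 h. Lilr4b, Gem and Gpr65 were chosen after their values were seen.

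In the replicated part of the series, the Ag-B7 array numbered 1 had the lowest mean level of the hypoxia, glycolysis and amino acid lists of the 4 Ag-B7 arrays at 48 h, at 10.98, 12.16 and 10.70. The labels also number the Ag-B7 array at 72 h as replicate 1, and its levels were 10.91, 11.87 and 10.42. In the IL-12 arm the 48 h array numbered 1 was at 11.47, 12.52 and 11.45, the lowest of its arm for the hypoxia and glycolysis lists only. The IL-12 array at 72 h, also numbered 1, was at 12.48, 13.04 and 11.68, above every IL-12 array at 48 h. Whether arrays of the same number came from the same mice or culture is not stated. The part of culture-to-culture spread in the late metabolic difference was not tested.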
